A study of Gallus gallus with 30 samples.

Results

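Breast muscle (Pectoralis major) of broilers, chickens bred for meat, was compared with that of layers, chickens bred for eggs, at 2 weeks after hatch. The comparison rests on the 3 arrays of the Broiler_2w group and the 3 of the Layer_2w group, 6 of the 30 arrays of the series, which the sample labels name. The broilers were Arbor Acres (AA) and the layers White Leghorn, all birds were males, both lines received a commercial diet made for layers, and both were housed at the same temperature and light. RNA of 5 males was pooled for each line, and each pool was hybridised to 3 Affymetrix Chicken Genome Arrays. The arrays of a pool therefore measure technical error, the spread between birds was not measured, and there is 1 pool per line, so that no p-value was computed for the difference at 2 w. The other 24 arrays hold pools of the same lines at 1 d, 4 w, 6 w and 8 w, from other birds. They were used to set the differences at 2 w beside pools that this comparison does not contain. They also entered the choice of the brightest probe set of a gene, which was made over all 30 arrays.

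The Pectoralis major of the chicken flies the bird in short bursts and is built almost entirely of fast glycolytic fibres. After hatch it grows by enlargement of existing fibres, with satellite cells dividing and adding nuclei to them, and by a balance of protein synthesis and breakdown that insulin-like growth factors, fasting signals and load on the sarcomere are known to shift. It is a main target of selection for meat.

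All levels are the deposited log2 signals (RMA), in which a step of 1 is a 2-fold change, and differences are broiler minus layer. Over the 38439 probe sets the arrays of a pool correlated with r between 0.986 and 0.993, and arrays of different pools with r between 0.980 and 0.989. The median difference was 0.01. Fast muscle markers were near the top of the scale in both pools: ACTA1, skeletal actin, read 13.79 ± 0.03 (SD of 3 arrays) in broilers and 13.79 ± 0.03 in layers. TNNT3 read 13.31 and 13.27, and MYL1 13.24 and 13.22. MYLPF read 12.60 and 11.80, higher in broilers by 0.80 without overlap of the arrays. PVALB, parvalbumin, was the exception among these markers, at 3.55 and 3.57, below the median signal of 4.14. CKM had no probe set with a single gene symbol.

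A probe set was called when the means of the pools differed by at least 2-fold and the arrays of one pool did not overlap those of the other. By this rule 129 probe sets were higher in broilers (0.336% of all) and 147 lower (0.382% of all). The balance of directions rested on single arrays: it was 150 higher and 109 lower without replicate 1 of both pools, 126 and 180 without replicate 2, and 120 and 205 without replicate 3. Only 5 further probe sets differed by 2-fold with overlapping arrays, whereas 5997 probe sets (15.6%) did not overlap at any size of difference. The called probe sets covered 184 named genes, 89 higher and 95 lower, and 65 of the called probe sets had no single gene symbol. Most differences were moderate, with a median size of 1.22 on the log2 scale among the called probe sets. The largest lay on the lower side: of the 21 probe sets over 4-fold, 14 were lower in broilers, and of the 10 over 8-fold, 8 were lower. With 1 probe set per gene, the brightest, 131 of 13051 genes were called (1.00%), 66 higher and 65 lower, and 10% of genes were higher and 9.08% lower without overlap at any size.

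**Figure D1:**
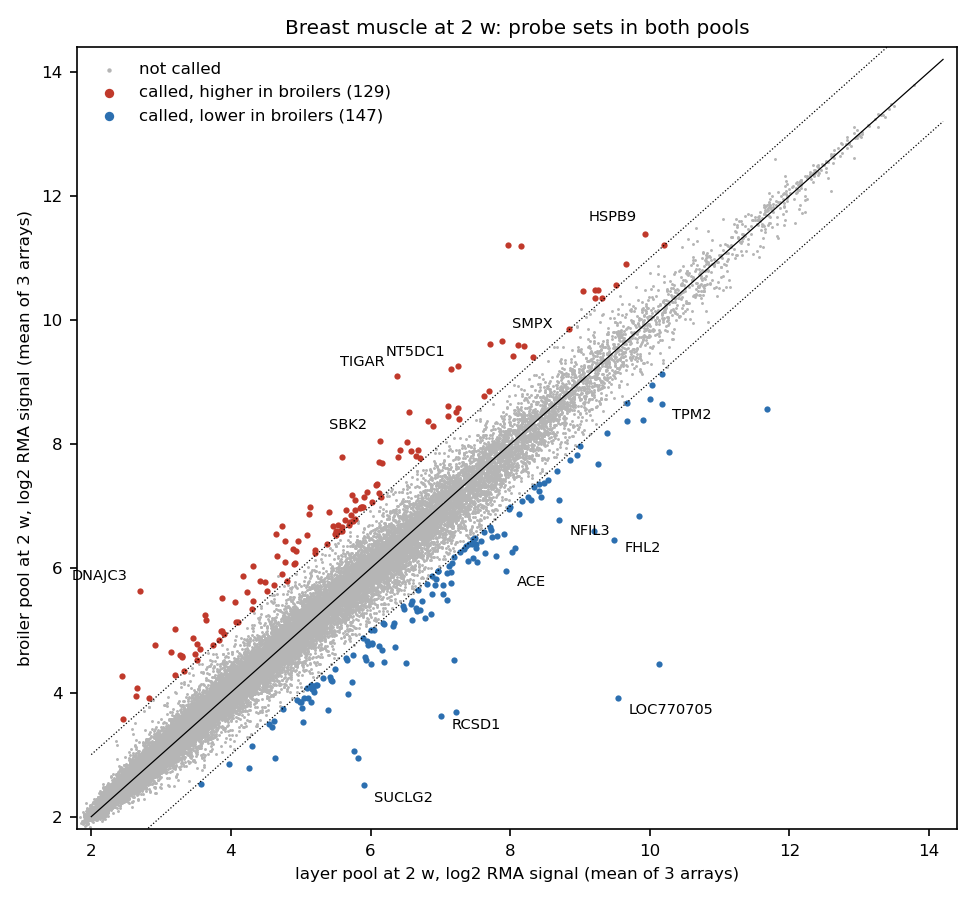
Each point is a probe set, with its log2 RMA signal in the layer pool on the x axis and in the broiler pool on the y axis (means of 3 arrays). The dotted lines mark 2-fold differences; 129 called probe sets (red) lie above and 147 (blue) below, and those farthest from the diagonal, such as LOC770705, are lower in broilers.

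Probe sets of 1 gene did not always tell the same story. Of the 123 called genes with over 1 probe set, 8 had all of them called, 22 had over 1 called, and in 78 all had the same sign. What separates the probe sets of a gene was not tested, and for called genes with over 1 probe set the number called is given below.

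The gene that led the higher side was TIGAR, which in mammals slows glycolysis and diverts sugar phosphate to the pentose phosphate pathway. Its only probe set read 9.26, 9.04 and 8.97 in broilers and 6.46, 6.35 and 6.33 in layers, a 6.56-fold difference. The broiler arrays were all high, with over 2 log2 units between them and the nearest layer array. NT5DC1, of the nucleotidase domain family, followed with 9.27, 9.32 and 9.18 against 7.34, 7.22 and 7.19 (4.03-fold), and all 3 of its probe sets were called. FASTKD3, a mitochondrial RNA-binding protein, read 4.20, 4.32 and 4.29 in broilers against 2.53, 2.40 and 2.40 in layers (3.54-fold). Here the layer arrays were close to the bottom of the scale (5th percentile 2.37), and 1 of 3 probe sets was called. A brighter FASTKD3 probe set went the other way, at 6.39 in broilers and 6.89 in layers (-0.50), and the remaining one stood at 0.32. AMPH, amphiphysin, which bends membranes, was 3.75-fold higher and SBK2, a protein kinase, 3.79-fold higher, each in its only probe set. The largest fold on this side was that of DNAJC3, a co-chaperone of the endoplasmic reticulum, with 5.25, 5.75 and 5.92 against 2.66, 2.58 and 2.84 (7.72-fold). It was called in 1 of 3 probe sets, and the median difference over them was 0.05. ZYX, a focal adhesion protein (1.58 higher on the log2 scale), LGALS1B, a galectin (2.34-fold), and PROKR1, a prokineticin receptor (2.13-fold), were likewise called in 1 probe set of 3, 4 and 3, with medians of 0.11, 0.09 and 0.05 over all of their probe sets. The remaining leading genes included the aldehyde oxidase AOX2 (2.47-fold) and KCNE3, an accessory subunit of potassium channels (2.67-fold).

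SMPX, ANKRD1 and MUSTN1, all muscle genes, were among the 20 leading genes higher in broilers. SMPX, a small protein of the muscle fibre that responds to stretch in mice, read 9.60, 9.76 and 9.63 in broilers and 8.04, 7.81 and 7.80 in layers, 3.45-fold, and 4 of 4 probe sets were called. ANKRD1, a stretch-responsive ankyrin repeat protein known from the heart, read 10.35, 10.61 and 10.49 against 9.16, 9.36 and 9.23 (2.35-fold, 2 of 3 probe sets called). For MUSTN1, a nuclear protein of muscle and skeleton, the broiler arrays stood at 8.47, 8.44 and 8.23 and the layer arrays at 7.02, 6.91 and 6.54 (2.94-fold). The lack of overlap in these genes follows from the rule for a call, and their direction from the choice of genes higher in broilers. Of the calsarcins of the Z-disc, called as list members, MYOZ1, the fast type, was 2.35-fold higher (1 of 2 probe sets called) and MYOZ2, the slow type, 2.83-fold higher. MYBPC3, the cardiac form of myosin-binding protein C, was 2.52-fold higher with 2 of 3 probe sets called. MYH1B, a myosin heavy chain of the fast cluster whose paralogs share much sequence, so that probe sets may cross-hybridise, was 3.89-fold higher in 1 probe set and had 2 of 3 called.

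The medians of the fibre type lists hardly shifted. Of 17 fast fibre genes 1 was called, the median was 0.02, and members ranged from -0.75 to 1.23. Without overlap 6 of the 17 were higher in broilers and 3 lower. Of 15 slow fibre genes 2 were called (MYOZ2 and ANKRD1), 12 had a higher mean in broilers, 4 of them without overlap, and the median was 0.13. Of all genes, 10% were higher and 9.08% lower without overlap. The summed linear signal of the fast list was 94940 to 100734 on broiler arrays and 92434 to 94661 on layer arrays. That of the slow list was 18324 to 18885 and 16364 to 16989, so that neither pair of ranges overlapped. The sums of many of the 39 lists did not overlap, so this is not particular to the fibre type lists. A sum also follows its brightest members, such as MYLPF in the fast list (12.60 in broilers and 11.80 in layers). Among the slow-type genes that the study names, 4 were measured and none was called: MB, myoglobin, read 4.79, 4.48 and 4.62 in broilers and 5.74, 5.55 and 5.16 in layers, a difference of -0.86, while TNNI1 (0.07), MYL3 (-0.06) and MYH7B (-0.02) overlapped. MYL3 and TNNI1 were at or under 3.05 on every array, near the bottom of the scale. In the sarcomere assembly list 13 of 22 genes were lower in broilers, 7 of them without overlap, and 4 genes were higher without overlap. The median of that list was -0.19, although its called member, MYBPC3, was higher.

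**Figure D2:**
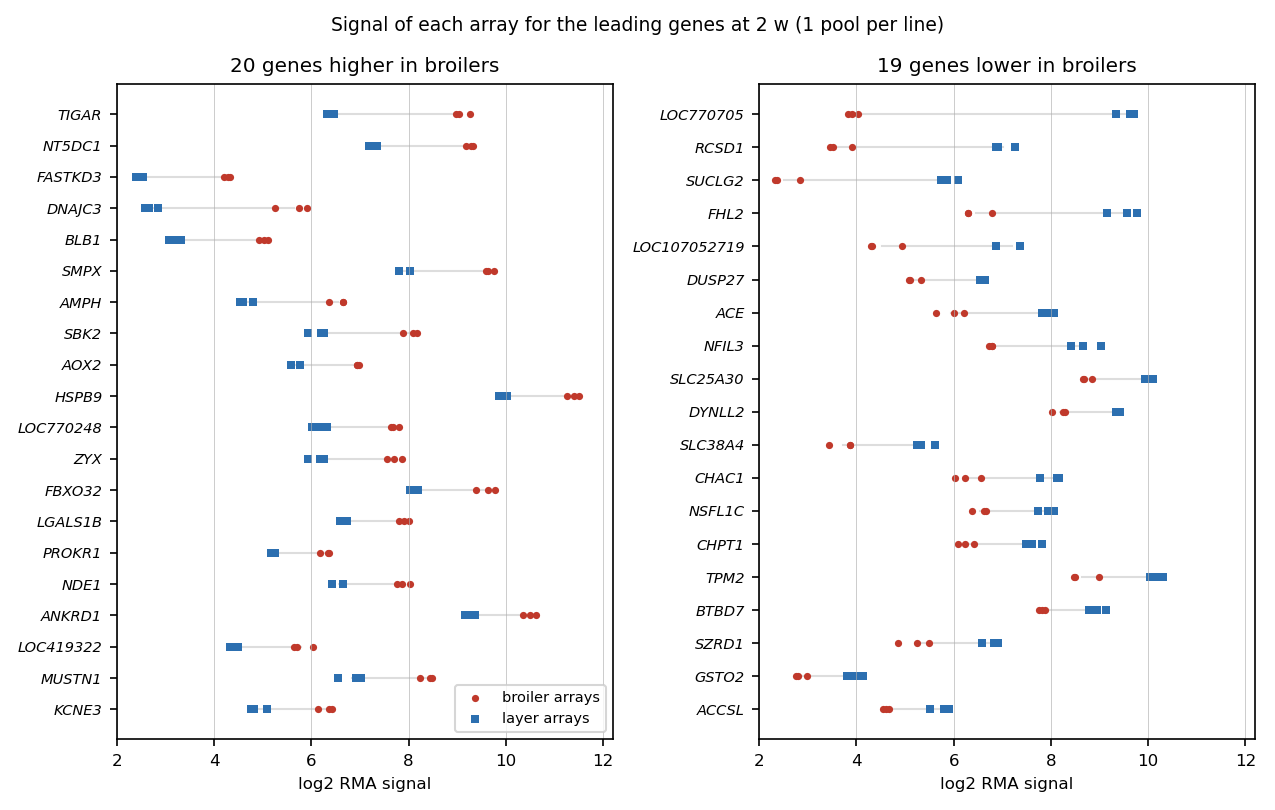
Log2 RMA signal of each array (x axis) for 20 genes higher and 19 lower in broilers, those with the largest difference relative to array SD. Red circles are the 3 broiler arrays and blue squares the 3 layer arrays of 1 pool each. By the rule for a call, the pools do not overlap in any of the 39 genes. The genes run from TIGAR (6.56-fold higher) to LOC770705 (49.6-fold lower).

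Among probe sets with a gene symbol, the largest difference on the lower side belonged to LOC770705, a locus with no assigned name, with 3.91, 4.03 and 3.82 in broilers and 9.70, 9.33 and 9.62 in layers, 49.6-fold, and both of its probe sets called. RCSD1, a protein that binds the actin capping protein CapZ, read 3.45, 3.51 and 3.90 against 6.92, 7.26 and 6.86 (10.5-fold, 1 of 2 probe sets called). FHL2, a LIM domain protein that promotes myoblast differentiation in mice, read 6.29, 6.78 and 6.30 in broilers and 9.76, 9.57 and 9.15 in layers, 8.19-fold in its only probe set. The broiler arrays were low in each of these 3 genes, by over 2 log2 units to the nearest layer array. NFIL3, a transcriptional repressor linked to the circadian clock, was 3.79-fold lower, with 6.79, 6.74 and 6.79 against 9.03, 8.66 and 8.40. ACE, the angiotensin-converting enzyme of vessel walls, was 3.96-fold lower, with 6.01, 5.64 and 6.22 against 7.82, 7.93 and 8.07. Both have a single probe set. CHAC1, an enzyme that degrades glutathione, read 6.23, 6.56 and 6.02 against 8.12, 8.17 and 7.77 (3.37-fold). Other leading genes were DUSP27, an inactive phosphatase of muscle (2.69-fold, 1 of 2), SLC25A30, a mitochondrial carrier (2.41-fold), NSFL1C, a cofactor of the ATPase VCP (2.58-fold, 2 of 3 probe sets called), CHPT1, of phosphatidylcholine synthesis (2.60-fold, 1 of 3), the amino acid transporter SLC38A4 (3.19-fold) and DYNLL2, a light chain of dynein (2.29-fold, 1 of 2).

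In some leading genes on the lower side 1 probe set stood apart from the others. SUCLG2, a subunit of succinyl-CoA ligase in the citric acid cycle, was 10.5-fold lower in 1 of 4 probe sets, with a median of -0.39 over all of them. TPM2, beta tropomyosin, was 2.87-fold lower in 1 of 6, with a median of 0.06. For SUCLG2 the size of the difference, and for TPM2 also its direction, depended on the probe set.

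Of the genes that govern satellite cells and muscle growth, few of the classical regulators were called. The list of myogenic regulators held 31 measured genes with a median of 0.17. In the brightest probe set, FHL2 (lower) and MUSTN1 (higher) were called. The study chose both on these same arrays, so their calls are not independent evidence. Without overlap 7 were higher and 5 lower, against 10% and 9.08% of all genes. MEF2C, picked after its values were seen, was called 2.04-fold lower in 1 probe set, and its others stood at -0.88 and -0.71. In fibroblast growth factor signalling, 3 of 26 genes were called, against 131 of all 13051 genes, and the median was -0.05. The 3 called, FGF1, FGFR2 and FGF16, are among the genes that the study chose on these same arrays. Their calls are therefore not independent evidence. FGF1, a growth factor, was lower at 5.96, 6.45 and 6.10 against 7.55, 7.70 and 7.13 (2.45-fold, 1 of 3 probe sets called). Its receptor FGFR2 was also lower, 2.15-fold with 2 of 5 called. FGF16, another growth factor of the family, was higher at 3.94, 5.04 and 4.99 against 3.30, 2.87 and 3.24 (2.86-fold). The growth factors FGF1 and FGF16 thus differed in opposite directions, and the 1 broiler array at 3.94 lay apart from the other broiler arrays of FGF16.

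Among the lists not taken from the study, insulin and IGF signalling had the lowest median, -0.28 against 0.01 for all genes. Of 26 measured genes 21 had a lower mean in broilers. Without overlap 8 of the 26 were lower and 2 higher, against 9.08% and 10% of all genes. Only PIK3R1, the regulatory subunit of phosphoinositide 3-kinase, was called, at 6.72, 7.59 and 7.84 against 8.14, 8.66 and 8.68 (2.16-fold lower, 1 of 4 probe sets). The first broiler array was about 1 unit below the other broiler arrays. IGF1 itself, picked after its values were seen, was 0.76 lower, and the binding protein IGFBP2, picked likewise, 0.70 lower, both without overlap and neither called. The IGF1 probe set was dim, at 3.46 in broilers and 4.22 in layers, beside a median signal of 4.14. Summed over the list, the linear signal was 10572 to 10956 on the broiler arrays and 12082 to 12885 on the layer arrays.

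The fasting and glucocorticoid list did not shift as a whole (25 genes, median 0.01), but its members parted. FBXO32, the muscle ubiquitin ligase also called atrogin-1, was called higher in broilers, with 9.63, 9.39 and 9.77 against 8.18, 8.03 and 8.13 (2.79-fold). PDK4, a kinase that inhibits the pyruvate dehydrogenase complex during fasting, read 9.62, 10.16 and 9.92 against 9.04, 9.19 and 8.63, 1.93-fold higher and below the limit for a call. In both the lowest broiler array was above the highest layer array. Of the members lower in broilers, none was called, and the largest difference was that of SGK1, a glucocorticoid-induced kinase picked after its values were seen, at -0.70. Over the list 7 genes were higher and 4 lower without overlap, against 10% and 9.08% of all genes.

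Cell proliferation genes had the highest median of the same lists, 0.39. Of 41 measured genes 39 had a higher mean in broilers, 18 of them without overlap and none lower without overlap, against 10% of all genes higher without overlap. CDC20, an activator of the anaphase-promoting complex, was called, with 6.98, 6.65 and 6.65 in broilers against 5.91, 5.72 and 5.61 in layers (2.02-fold). NDE1, a dynein partner in mitosis, was called with 7.86, 8.03 and 7.76 against 6.65, 6.64 and 6.42 (2.48-fold). The study chose NDE1 on these same arrays, so its call is not independent evidence. Endothelial genes stood next, with a median of 0.36: 24 of 27 had a higher mean in broilers, 11 without overlap and none lower without overlap, but none reached 2-fold. PECAM1, an adhesion molecule of endothelium, was 1.70-fold higher and SOX7, an endothelial transcription factor, 1.69-fold higher. The summed linear signal of the endothelial list was 3636 to 4035 on the broiler arrays and 2403 to 2953 on the layer arrays, and that of the proliferation list 4756 to 5252 and 3863 to 4313. In these bulk samples, fewer cells of a type and less RNA per cell cannot be told apart.

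**Figure D3:**
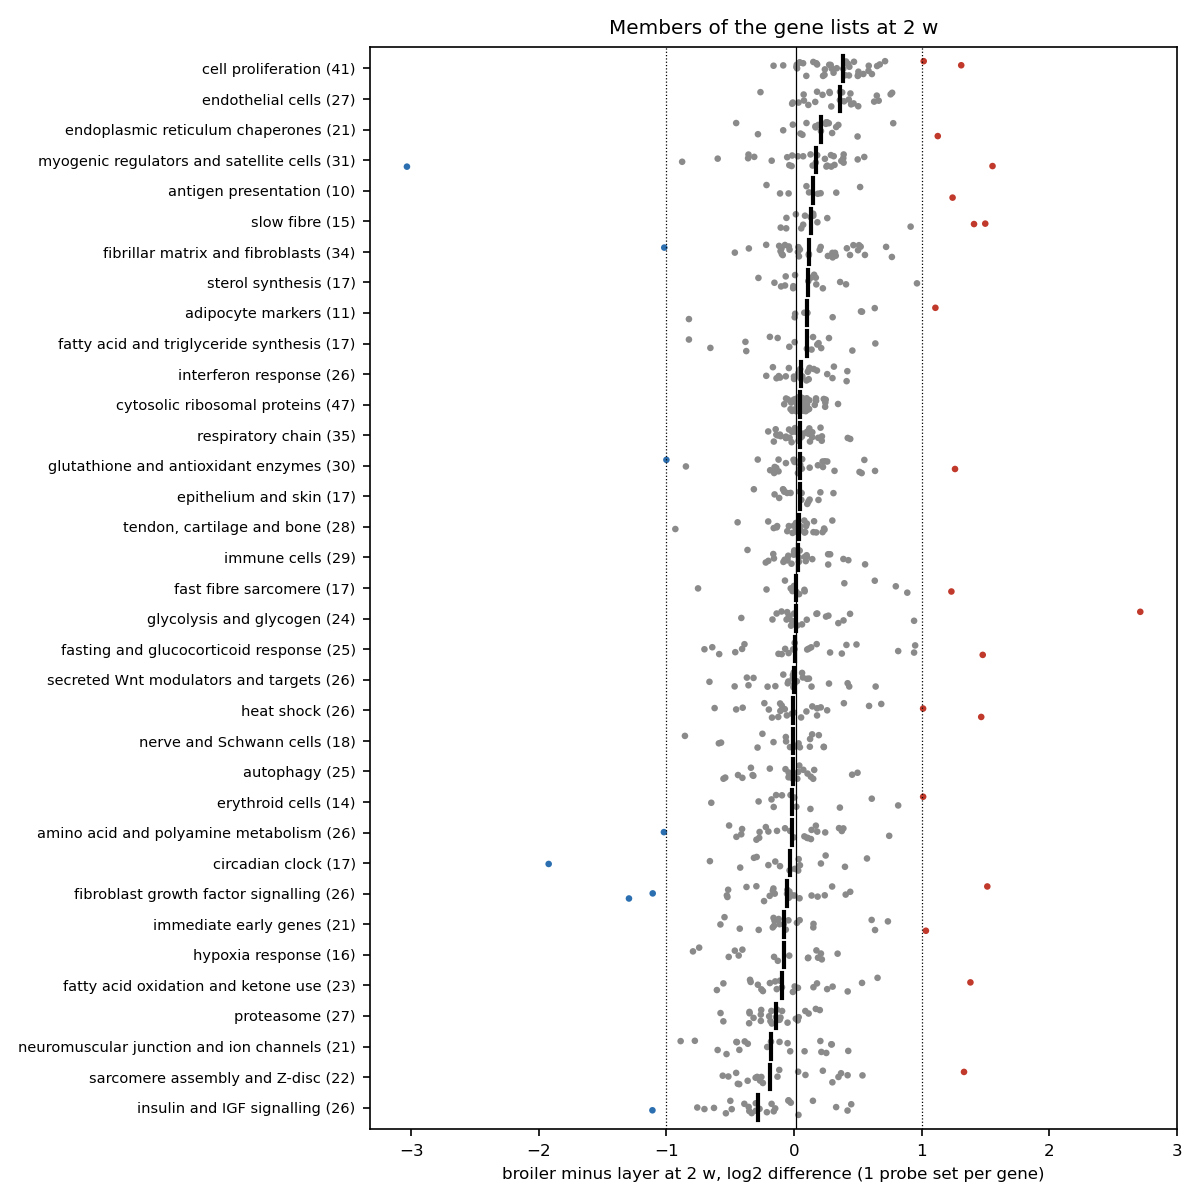
Difference between broilers and layers at 2 w (x axis, log2, 1 probe set per gene) for the members of the gene lists not taken from the study, with the number of measured genes in brackets. Grey points were not called, red and blue points were called higher and lower, black bars are list medians, the thin line is the median of all genes and the dotted lines are 2-fold; cell proliferation (0.39) and endothelial cells (0.36) lie highest and insulin and IGF signalling (-0.28) lowest.

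The pathways of energy metabolism were close to equal as lists, with single genes apart. Glycolysis and glycogen had a median of 0.01 over 24 genes, with 12 on each side and TIGAR as the only call. The respiratory chain had a median of 0.05 over 35 genes with no call, its largest differences being NDUFA8 (0.44) and NDUFB8 (0.42). Its lowest member stood at -0.20, and the median over the 2 probe sets of NDUFB8 was 0.05. In fatty acid oxidation and ketone use, OXCT1, which activates ketone bodies for burning, was called with 9.51, 9.41 and 9.35 against 8.34, 8.07 and 7.72 (2.61-fold, 2 of 4 probe sets), while the median of the 23 genes was -0.09. GSTZ1, of tyrosine breakdown, was 2.40-fold higher, and GCLC, which makes the first bond of glutathione, was 2.00-fold lower in 1 of 3 probe sets, at the limit of a call. CBS, of the transsulphuration pathway, was 2.03-fold lower in 1 of 2. INSIG1, the anchor that holds back sterol synthesis, was 0.96 higher in the brightest probe set, and 1 of its 3 probe sets was called. The metabolic genes that the study names had a median of 0.58 over 19 genes, with 4 called higher (AOX1, FABP4, GSTZ1 and OXCT1) and GCLC lower. The study chose them on these same arrays, so their direction is not independent evidence.

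In the lists of heat shock proteins, endoplasmic reticulum chaperones, ribosomal proteins, proteasome and autophagy, the genes called in the brightest probe set were HSPB9, HSPA2 and ERO1A. HSPB9, a small heat shock protein, read 11.26, 11.51 and 11.41 in broilers and 9.89, 10.02 and 9.86 in layers (2.77-fold, 2 of 2 probe sets called). HSPA2, a member of the Hsp70 family, was 2.02-fold higher. The heat shock list as a whole had a median of -0.01 over 26 genes. Its summed signal was 21021 to 21560 on the broiler arrays and 15430 to 17807 on the layer arrays, and the ranges did not overlap although the list median was near 0. The sum follows the brightest members, which include the called HSPB9 (means 11.39 and 9.93) and HSPA2 (11.21 and 10.20). It is therefore not a measure of the list apart from them. Chaperones of the endoplasmic reticulum had a median of 0.21 over 21 genes, and ERO1A, which oxidises folding proteins, was called (2.18-fold higher in 1 of 2 probe sets, with -0.15 in the other). Ribosomal proteins had a higher mean in broilers in 40 of 47 genes, but by a median of only 0.05. Of the 47, 6 were higher without overlap, against 10% of all genes. Of 27 proteasome genes 20 were lower in broilers, 6 without overlap against 9.08% of all genes, with a median of -0.14 and no call. PSMD6 (-0.58) and PSMA2 (-0.55) were the lowest. Autophagy genes had a median of -0.01, with MAP1LC3A, of the autophagosome membrane, at -0.55 and BECN1 at -0.54. ATF3, a transcription factor of the stress response, was the only called member of the immediate early list (2.05-fold higher).

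Markers of other cell types differed in a few genes. FABP4, the fatty acid binding protein of adipocytes, read 6.82, 7.04 and 7.10 in broilers against 6.01, 6.02 and 5.61 in layers (2.16-fold), and 10 of 11 adipocyte genes were higher in the mean of the broiler arrays (median 0.11). DGAT2, of triglyceride synthesis, was the exception at -0.82. The summed signal of these 11 genes was 1988 to 2311 on broiler arrays and 1535 to 1979 on layer arrays. The ranges did not overlap, as in many of the lists. For 14 erythroid genes the sums were 5687 to 6825 and 4175 to 5093. CA2, a carbonic anhydrase of red cells and other tissues, was called in that list (2.02-fold higher). The median of the list was -0.01, with 7 genes higher and 7 lower in the mean. The erythroid marker HBAD, a globin, read 10.38 in broilers and 9.57 in layers, 0.82 higher without overlap and not called. The Schwann cell marker MBP, myelin basic protein, was 1.81-fold lower without overlap in its brightest probe set. Further MBP probe sets stood at -0.06 and -0.09. The list of nerve and Schwann cells, which includes the brightest MBP probe set, had a median of -0.01. Its summed signal was 1280 to 1535 on the broiler arrays and 1596 to 1969 on the layer arrays, without overlap, as in many of the lists. Leukocyte markers differed by 0.00 to 0.43, and the immune cell list had a median of 0.03. Cartilage, tendon and epithelial markers differed by at most 0.22 in size. The part of other cell types in the differences of muscle was not tested. Among the lists not described singly, medians were 0.15 for antigen presentation, 0.11 for sterol synthesis, 0.10 for fatty acid and triglyceride synthesis, 0.05 for glutathione and antioxidant enzymes and 0.04 each for epithelium and for tendon, cartilage and bone. They were 0.00 for Wnt modulators, -0.02 for amino acid metabolism, -0.03 for the circadian clock and -0.08 each for hypoxia and for immediate early genes. Of the lists chosen by the study on these same arrays, the satellite cell and LIM genes stood at -0.25 and the ubiquitin ligases at -0.29.

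In the major histocompatibility complex, BF2, a class I chain, read 7.11, 7.17 and 7.15 in broilers and 6.12, 5.78 and 5.79 in layers (2.37-fold, 1 of 4 probe sets called). BLB1, a class II chain, was 3.55-fold higher in 1 of 5 probe sets (the median of the 5 was -0.22), and both families are polymorphic and hold near-identical copies. Interferon response genes had a median of 0.06 at 2 w, with no call in 26 genes, whereas the same list stood at -1.48 at 4 w. Of 34 genes of the fibrillar matrix, COL12A1, a collagen bound to fibrils, was called lower (2.02-fold, 1 of 4 probe sets), and the median was 0.12. Without overlap 9 of the 34 were higher and 4 lower, against 10% and 9.08% of all genes. The 3 chains of collagen VI, which surrounds the muscle fibre, picked after their values were seen, were higher without overlap: COL6A1 by 0.51, COL6A2 by 0.77 and COL6A3 by 0.72. The neuromuscular junction and ion channel list held 21 measured genes, none of them called, and its median was -0.18. The broiler mean was below the layer mean in 14. Of the 21, 8 were lower and 1 higher without overlap, beside 9.08% and 10% of all genes. ACHE, acetylcholinesterase, was 1.85-fold lower and SCN4A, the sodium channel of skeletal muscle, 1.71-fold lower.

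Of the genes that the study names, its supplement included, 49 were measured, with a median difference of 0.02. In the brightest probe set 9 were called higher in broilers and 6 lower, against 131 called of all 13051 genes. The study drew these names from its results on these same arrays, so the count of calls is not independent evidence. The named genes called and not yet given were UCHL1 and CA4. UCHL1, a ubiquitin hydrolase, was 2.77-fold higher in its brightest probe set, 1 of 3 called, with a median of 0.02 over them. CA4, a carbonic anhydrase, was 2.46-fold lower. CSRP3, a LIM protein of the Z-disc, read 3.26, 3.26 and 3.11 in broilers and 3.03, 3.53 and 3.03 in layers, and no difference was detectable. DKK3, a secreted glycoprotein, was 1.56-fold higher, and EDNRA, an endothelin receptor, 1.53-fold higher, both without overlap. The ubiquitin ligases HERC4 (-0.82) and RLIM (-0.81) were lower without overlap, and FBXO30 (-0.29) overlapped. FBXO22 was 0.20 higher with overlap in its brightest probe set, whereas 1 of its 6 probe sets, at 3.45 in broilers and 4.59 in layers, was called 2.20-fold lower, and the other 5 were higher. HS6ST2, which sulphates heparan chains, was called 4.09-fold lower in 1 of 2 probe sets, and its brightest was 1.43-fold lower with overlap. LDB3, of the Z-disc, was called 2.60-fold higher in 1 of 3 probe sets, and its brightest stood at -0.12.

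The 65 called probe sets without a single gene symbol, 25 higher and 40 lower, held some of the largest differences. The 3 that the design of the array assigns to an avian leukosis virus strain, ev-1, were picked after their values were seen. In the first the broiler arrays read 4.26, 4.17 and 4.94 and the layer arrays 10.05, 9.95 and 10.40, 51.1-fold lower, the largest difference on the array. The second was 8.01-fold lower and the third 2.26-fold higher, so that these probe sets did not share a direction. The first stayed lower at every other age, by 3.37 to 6.57, and so did the second, by 1.51 to 6.98. The third lay between -0.28 and 1.99 at the other ages.

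The differences at 2 w were then set beside the pools of 1 d, 4 w, 6 w and 8 w, which hold other birds of both lines. Of the 276 called probe sets, 149 (54.0%) had the same sign at all 4 other ages, against 13.0% of all probe sets. The share with the same sign was 73.6% at 1 d, 87.0% at 4 w, 82.2% at 6 w and 88.0% at 8 w, against 56.3%, 57.0%, 52.2% and 60.0% of all probe sets. By the same rule for a call, 36 of the 276 were also called at 1 d (13.0% of the 276 and 9.81% of those called at 1 d), 88 at 4 w (31.9% and 22.0%), 90 at 6 w (32.6% and 23.3%) and 102 at 8 w (37.0% and 30.2%). Fewest probe sets were called at 2 w of all ages, 276 against 338 to 400. Of the 276, 107 were called at 2 w alone and 10 at every age in 1 direction.

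The difference between the lines over the 4 other ages was tested with limma on the 8 pool means, with age in the fit and p-values adjusted over the 38439 probe sets (Benjamini-Hochberg). It called 128 probe sets (0.333%) at an adjusted p under 0.05, and 38 of these were among the 276 called at 2 w, all in the same direction, 15 higher and 23 lower. That is 13.8% of the calls at 2 w and 29.7% of the calls of limma. The count of limma rested on single ages: without the pools of 6 w it was 0, without those of 8 w 10, without those of 4 w 29 and without those of 1 d 354. TIGAR (adjusted p = 0.016), DNAJC3 (0.0089), ZYX (0.0089) and OXCT1 (0.022) were higher over the other ages by limma. Each adjusted p given here is that of 1 probe set of the gene. At 2 w the further probe sets stood at 0.05 and -0.03 for DNAJC3 and at 0.11 and 0.07 for ZYX. NSFL1C (adjusted p = 0.010), NFIL3 (0.018), BTBD7 (0.020), LOC770705 (0.020), ACE (0.022), CHPT1 (0.041) and RCSD1 (0.043) were lower by limma. FHL2 was lower by 3.45, 2.94 and 3.30 at 4 w, 6 w and 8 w but by 0.46 at 1 d, and did not pass (adjusted p = 0.068 by limma).

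Whether the difference at 2 w departed from the mean of the other ages was tested with a further term in limma over all 10 pools. No probe set passed an adjusted p under 0.05 in limma, the lowest adjusted p being 0.507, and 1000 (2.6%) had an unadjusted p under 0.05. The spread in this test comes from the other ages, since each line has 1 pool at 2 w. How the difference at 2 w stood beside the other ages can therefore only be described. SMPX was 1.79 higher at 2 w and 0.35 to 1.02 higher at the other ages. NT5DC1 was 2.01 higher at 2 w, with -0.23, 0.75, 0.58 and -0.47 at 1 d, 4 w, 6 w and 8 w. CHAC1, 1.75 lower at 2 w, was 0.24 to 1.15 higher at every other age, and HSPB9, 1.47 higher at 2 w, lay between -0.64 and 0.27. In FBXO32 the sign turned with age: -0.57 at 1 d, 1.48 at 2 w, 0.52 at 4 w, -2.47 at 6 w and 1.31 at 8 w. PDK4 went from 0.95 at 2 w to -1.96 at 4 w and -4.90 at 6 w, and then 1.95 at 8 w. SUCLG2, lower at 1 d, 2 w, 6 w and 8 w, was 2.06 higher at 4 w. Of the gene lists, cell proliferation had medians of 0.45 at 1 d, 0.37 at 4 w, -0.02 at 6 w and 0.19 at 8 w beside its 0.39 at 2 w. Insulin and IGF signalling had medians from -0.19 to -0.01 at the other ages beside -0.28, and endothelial cells from 0.01 to 0.15 beside 0.36.

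**Figure D4:**
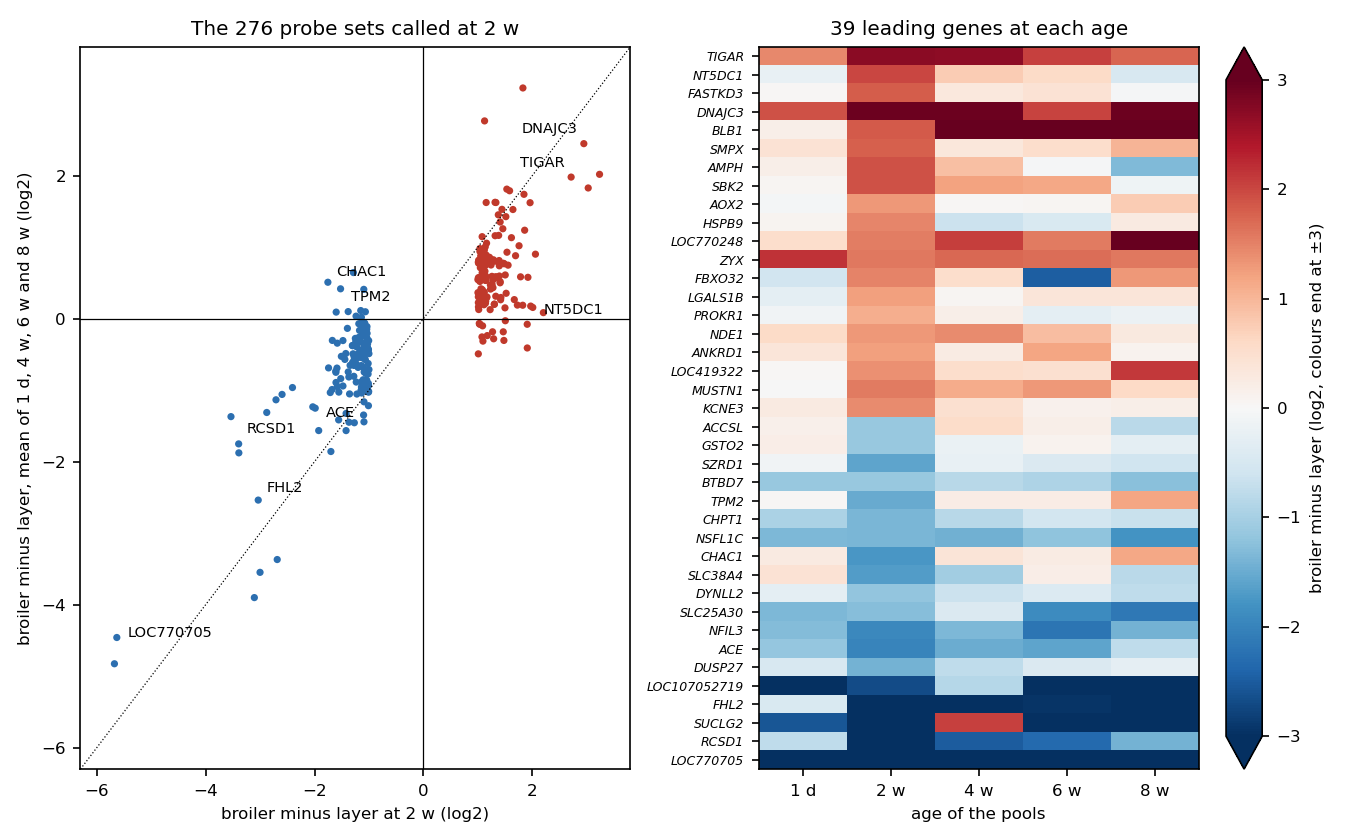
Left, the difference between the lines at 2 w (x axis, log2) against its mean over 1 d, 4 w, 6 w and 8 w (y axis, log2) for the 276 called probe sets, red higher and blue lower at 2 w, with equality dotted. Right, the difference at each age (colour, log2) for 39 leading genes; 149 of the 276 kept their sign at all 4 other ages, whereas CHAC1 and TPM2 were lower at 2 w alone.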

How the data were processed

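Total RNA of 1 pool of 5 males per line and age was labelled and hybridised to 3 arrays. The authors made the deposited log2 values with RMA, and called presence with MAS5, which was not used here. For RMA and MAS5 no version is given in the sources used here. RMA draws the distributions of all arrays together, so a shift common to all genes would not be seen, and no depth applies to arrays, whose number limits the precision. The 96 control probe sets were left out. A single gene symbol was annotated to 27168 probe sets, several symbols to 177 and no symbol to 11094, and 26853 had a gene in the RefSeq table of GRCg7b, used for names only.

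Means of 3 arrays were compared at 2 w with no test. Probe sets were ranked by the difference over the pooled array SD plus its median over all probe sets (0.172). Pool means of the other ages were fitted with limma 3.58.1 (R 4.3.3), with an intensity trend and Benjamini-Hochberg adjustment. The 39 gene lists took the brightest probe set of a gene over all 30 arrays and were described by counts and medians. Genes named in the text are the 20 higher and 20 lower in rank among called probe sets with 1 symbol, the 5 largest folds each way, called list members or else the 2 with the largest difference, and genes the study names; others are marked as picked after their values were seen. 1 gene that this rule names is not reported here. The comparison, the members and the lists were chosen with earlier results of these data known. Calls and fits were tested on simulated data.

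Array numbers are shared by the lines, and deviations of same-numbered arrays from their pool means correlated at 0.18, 0.43 and 0.50 at 2 w. For arrays of different numbers the values ran from -0.46 to 0.17, the highest being close to the 0.18 of number 1. The numbers were taken to pair the arrays in a replicate block. What a number marks is not stated in the labels. Alternatives covered the fold, the rule on overlap, normalization, dim probe sets, the replicate block, each array number, the choice of probe set, the variance trend and each other age.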

Additional observations from a re-analysis of the deposited data

How the results depend on the processing

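At 2 w, a limit of 1.5-fold gave 1236 calls (534 higher, 702 lower) and one of 3-fold 50 (23 higher, 27 lower) in place of 276. With the replicate block, which asks for the same sign in all numbered differences, 281 probe sets were called. A 2-fold limit with no rule on overlap gave the same number. The count stayed within 1.5 times of 276 under the other alternatives run for it (259 to 325 with an array number left out, of which 109 to 205 lower and 120 to 150 higher). The departure at 2 w gave 0 calls by limma under every setting run. The line difference over the other ages by limma depended on the settings: 74 with median-centred arrays, 16 with no variance trend, 80 to 172 with an array number left out, 354 without 1 d, 29 without 4 w, 0 without 6 w and 10 without 8 w, in place of 128. The probe sets called both by it and at 2 w then numbered 24 with median-centred arrays, 7 with no trend, 97, 16, 0 and 4 without these ages in turn, and 34 to 47 with an array number left out, in place of 38. Leaving out the 4 w, 6 w or 8 w pools was chosen after seeing the data. With the median over all probe sets of a gene, 2 of the called genes described here reversed: BLB1 (-0.22) and TPM2 (0.059). List medians moved by at most 0.22. The limits are 1 pool per line, technical arrays only, and dim probe sets near the bottom of the scale.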
